A study of Mus musculus with 8 samples.

Results

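The gene desert on the Sox9 side of the mouse Kcnj2 and Sox9 locus was examined as a set of contacts among its own pieces. It was taken as 111.41 to 112.48 Mb of chromosome 11 (mm9), 1070 kb in 107 bins of 10 kb. All pairs of bins at least 20 kb apart with both bins in this interval were used, 5565 of the 172578 pairs in the whole map. The choice rests on position alone and used no measured contact. Chromatin contacts had been measured by capture Hi-C, in which DNA fragments that lie close together in fixed nuclei are ligated, fragments of a chosen region are enriched, and each read pair counts 1 contact. The tissue was fore- and hindlimb buds of E12.5 embryos, pooled over 3 to 8 embryos, and each genotype had 1 library.

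The 4 rearranged libraries were InvC∆Bor, InvC and InvIntra, which carry inversions, and BorKnockIn, which carries an insertion. The 4 deletion libraries were ∆BorC1, ∆BorC1-2, ∆BorC1-4 and ∆CTCF. All 8 mutants were homozygous and came from G4 embryonic stem cells. In the study's names Bor stands for the boundary between the Kcnj2 and Sox9 domains, and C1 to C4 for CTCF sites, whose positions the labels do not give. All 4 deletion labels name the boundary with C1, or CTCF. The label of InvC∆Bor names loss of the boundary and no C site, and the other rearranged labels name no deletion. In BorKnockIn's own map the desert began at 111.39 Mb, against 111.41 Mb in the deletion maps. Its coordinates run 19 kb behind mm9 there, so its map holds 19 kb less sequence left of the desert. Its label does not say whether the boundary is kept at its original place, and which sequence is missing was not tested. A wildtype library and the remaining mutant of the series were not analysed here. With 1 library per genotype no test between genotypes was possible. The spread between the same 8 libraries in unedited flanks, at least 300 kb outside Kcnj2 to Sox9, is given beside the values. It describes how libraries differ without an edit and is not replicate error. In the flanks the inverted libraries were not turned round. The spread therefore lacks the offset of 1 to 2.5 kb that matching by sequence leaves in their desert.

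Sox9 encodes a transcription factor without which cartilage does not form, and the long stretch without well-studied genes beside it holds enhancers that act on Sox9 from afar. Kcnj2 encodes an inward rectifier potassium channel. Chromosomes fold into domains within which contacts are frequent. CTCF, a zinc finger protein, marks many domain edges together with cohesin, and pairs of CTCF sites that point toward each other often anchor loops. A CTCF site can appear in a contact map as a point of insulation, across which contacts are sparse, and as a line of raised contacts that runs away from the site to 1 side. In the RefSeq gene order (GRCm38), 7 gene models lie between Kcnj2 and Sox9. These are the pseudogene Gm11675, the protein-coding model Gm11677 and the long noncoding RNAs Gm30158, Gm30219, Gm30337, Gm39461 and BC006965. Their mm9 positions were not used here, so none is placed inside or outside the desert.

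To follow the same DNA through the rearranged maps, positions were matched by sequence. BorKnockIn was read at its own coordinate plus 19 kb, InvC∆Bor and InvC in mirror order as 223.899 Mb minus the coordinate, and InvIntra as 223.9175 Mb minus the coordinate. Over the 107 bins, read coverage correlated with the median of the deletion libraries at 0.903 in InvC∆Bor, 0.891 in InvC, 0.851 in InvIntra and 0.904 in BorKnockIn when read this way. At the deposited coordinates the same correlations lay between -0.02 and 0.07. Both ends of the desert matched: over the left 200 kb the 4 rearranged libraries reached 0.834 to 0.855, and over the right 200 kb 0.820 to 0.897. These are descriptions across bins, which share the probes and the base composition. All positions below are mm9 positions of the sequence, whatever its order in a given mutant.

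The desert was well covered in all 8 libraries. It held 280814 contacts in InvC∆Bor, the shallowest library, and 895266 in ∆BorC1-4, the deepest. Every member pair had at least 1 contact in every library, the median was 34 to 111 contacts per pair, and no bin fell under the coverage minimum of 0.25 of the map's median. Contacts inside the desert took 9.19% of all contacts in InvC∆Bor (95% exact binomial interval 9.16 to 9.22), 9.86% in InvC (9.83 to 9.88), 10.7% in InvIntra (10.6 to 10.7) and 10.3% in BorKnockIn (10.28 to 10.33). The share was 9.40% for ∆BorC1 (9.37 to 9.42), 9.12% for ∆BorC1-2 (9.10 to 9.15), 9.90% for ∆BorC1-4 (9.88 to 9.92) and 9.90% for ∆CTCF (9.88 to 9.93). The rearranged and the deletion libraries overlapped. The intervals reflect counting error alone and treat each read pair as independent.

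**Figure D1:**
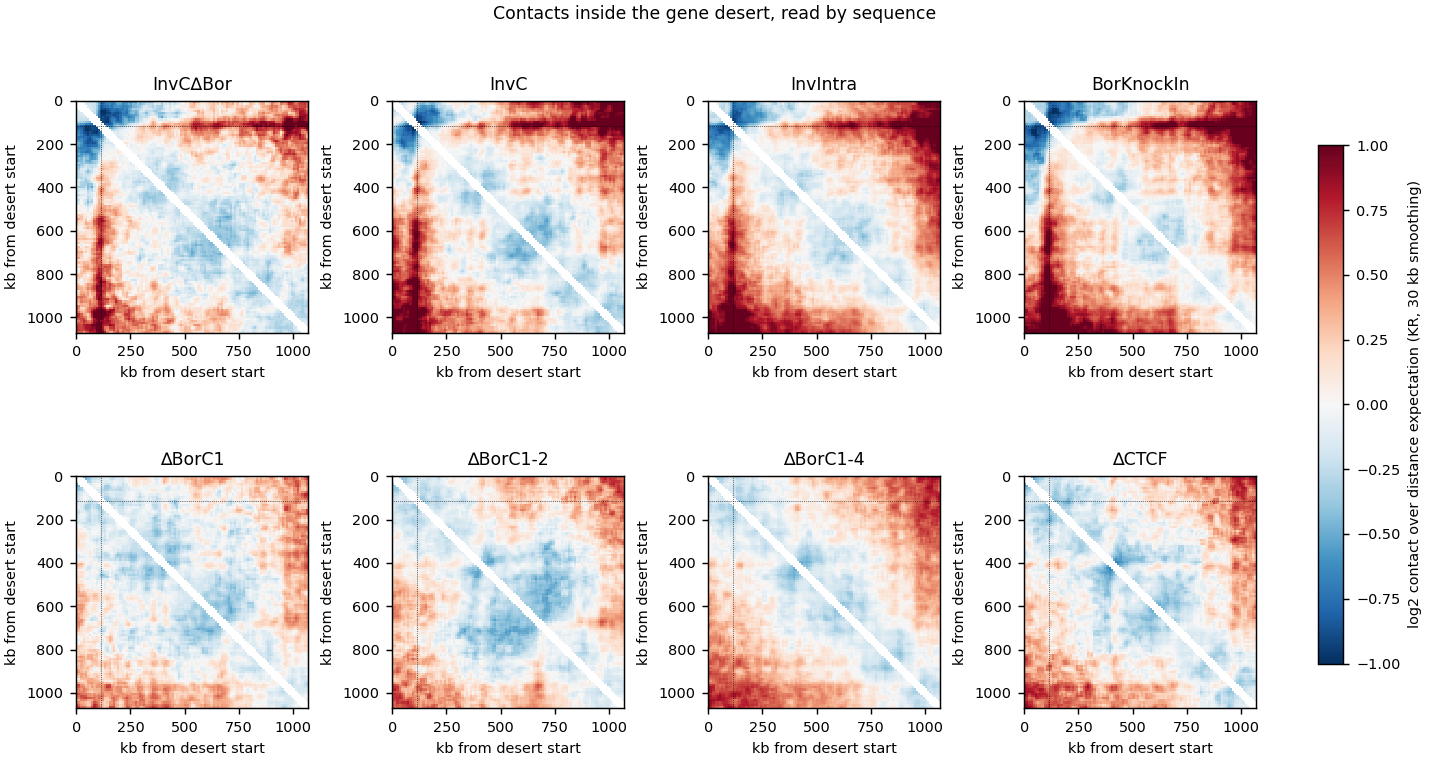
Balanced (KR) contact over the distance expectation, on a log2 colour scale from -1 to 1, for all pairs inside the desert in the 8 libraries, with both axes in kb from the desert start by sequence. The dotted line at 115 kb marks the left internal site: a red line of raised contacts runs from it to the right end in the 4 maps of the upper row (InvC∆Bor, InvC, InvIntra, BorKnockIn) and not in the lower row (∆BorC1, ∆BorC1-2, ∆BorC1-4, ∆CTCF).

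Contacts were first set against what distance alone gives. Each balanced value was divided by the library's own mean at that distance over its whole map, so a value of 1 is the map's average. Pairs 20 to 90 kb apart stood below it, at 0.85 to 0.92 over the 8 libraries. Pairs 500 to 1060 kb apart stood above it in every library. Their mean was 1.33 in InvC∆Bor, 1.52 in InvC, 1.60 in InvIntra and 1.64 in BorKnockIn, against 1.19 for ∆BorC1, 1.20 for ∆BorC1-2, 1.37 for ∆BorC1-4 and 1.28 for ∆CTCF. InvC, InvIntra and BorKnockIn were above all 4 deletion libraries, and InvC∆Bor lay below ∆BorC1-4. The highest library was 1.38 times the lowest, where 15 flank windows of the same length gave 1.07 as a median and at most 1.11. Without the left 150 kb of the desert the values were 1.245 in InvC∆Bor, 1.32 in InvC, 1.53 in InvIntra and 1.57 in BorKnockIn, against 1.20 for ∆BorC1, 1.15 for ∆BorC1-2, 1.35 for ∆BorC1-4 and 1.26 for ∆CTCF. InvC then also lay below ∆BorC1-4, and the highest library was still 1.37 times the lowest.

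To see whether the internal pattern follows the sequence when the desert is turned round, log2 contact over expectation was correlated across the 190 pairs of 50 kb blocks at least 100 kb apart. Block pairs share bins, so these correlations have no test. InvC∆Bor matched BorKnockIn, which keeps the original order, at 0.960 when read by sequence and at 0.696 when read at the deposited coordinates. The same values were 0.881 and 0.774 for InvC, and 0.981 and 0.692 for InvIntra. All 3 inverted deserts were thus more like the uninverted one by sequence than by position. Against ∆BorC1, the reading by sequence gave 0.689 in InvC∆Bor, 0.722 in InvC, 0.765 in InvIntra and 0.714 in BorKnockIn. The median of these 4 values, 0.718, was 0.287 where each library was divided by its own mean over the desert alone. BorKnockIn was slightly more like ∆BorC1 at its deposited coordinates, at 0.728. The other 3 deletion libraries reached 0.819 (∆BorC1-2), 0.834 (∆BorC1-4) and 0.868 (∆CTCF) against ∆BorC1, and 912 flank block pairs gave 0.980 to 0.988 in all 7 libraries. A correlation also depends on how widely the values range, so desert and flank correlations are not directly comparable. The standard deviation of the log2 ratio of ∆BorC1-2 over ∆BorC1 was 0.14 in the desert and 0.12 in the flanks. For the 4 rearranged libraries over ∆BorC1 it was 0.23 to 0.28 in the desert and 0.14 to 0.15 in the flanks.

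By these correlations, part of what set the rearranged maps apart from the deletion maps lay at the left end. The 16 pairs of a rearranged and a deletion library had a median correlation of 0.806 (0.689 to 0.889). Without the 150 kb from 111.41 Mb the median was 0.865 (0.803 to 0.936), over 136 block pairs. The 6 pairs of rearranged libraries had a median of 0.944 with this end and 0.947 without it. The 6 pairs of deletion libraries had 0.840 with it and 0.820 without it.

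The largest difference inside the desert was a point of insulation near 111.525 Mb, 115 kb from the desert start. The insulation score used here is the log2 of the mean balanced contact between the 100 kb on the left and the 100 kb on the right of a bin, over its mean inside the desert, so a low score means few contacts across. At 111.525 Mb it was -0.61 in InvC∆Bor, -0.55 in InvC, -0.61 in InvIntra and -0.73 in BorKnockIn. It was -0.05 for ∆BorC1, -0.06 for ∆BorC1-2, -0.08 for ∆BorC1-4 and -0.08 for ∆CTCF. The groups did not overlap, and the median of the rearranged libraries was 0.54 below that of the deletion libraries on the log2 scale (difference -0.54). At 312 flank positions the same difference between groups never exceeded 0.09 in size. The site was the lowest position, to within 1 bin, of each rearranged library, and of no deletion library. The range over the 8 libraries was beyond the highest flank range, 0.39, at 4 of 87 positions inside the desert, 111.515 to 111.545 Mb, where over desert and flanks together 1% of positions were.

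The 100 kb window only just lies inside the desert at this position, so a 50 kb window was read as well. It gave -0.68 in InvC∆Bor, -0.71 in InvC, -0.65 in InvIntra and -0.76 in BorKnockIn, against -0.07 for ∆BorC1, -0.09 for ∆BorC1-2, -0.09 for ∆BorC1-4 and -0.11 for ∆CTCF. The raw counts showed it without any balancing. Of the contacts within 100 kb of either side, 28.7% crossed 111.525 Mb in InvC∆Bor (27.9 to 29.4, exact binomial interval), 29.6% in InvC (29.1 to 30.2), 31.1% in InvIntra (30.6 to 31.6) and 29.4% in BorKnockIn (28.9 to 29.9). The share was 35.9% for ∆BorC1 (35.3 to 36.5), 35.8% for ∆BorC1-2 (35.3 to 36.3), 36.9% for ∆BorC1-4 (36.5 to 37.3) and 35.8% for ∆CTCF (35.2 to 36.3). The highest share was 1.29 times the lowest, where 312 flank positions gave 1.08 as a median and at most 1.21. InvC∆Bor, which lacks the boundary by its label, was as low as InvC and InvIntra, whose labels name no such loss.

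**Figure D2:**
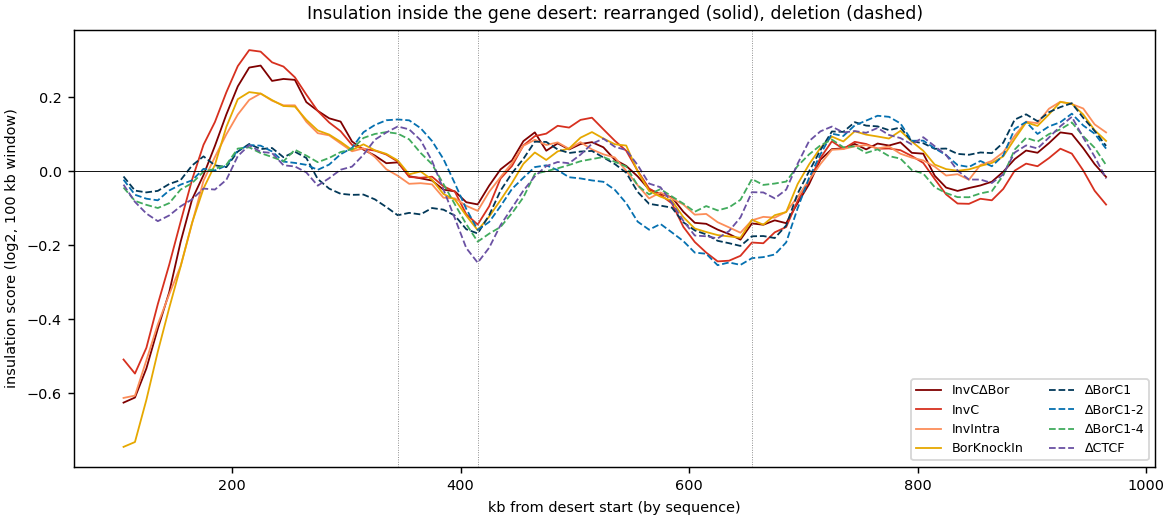
Insulation score (log2, 100 kb window) against position in kb from the desert start by sequence, with solid lines for InvC∆Bor, InvC, InvIntra and BorKnockIn and dashed lines for the 4 deletion libraries. At 115 kb the solid lines lie between -0.73 and -0.55 and the dashed lines between -0.08 and -0.05. Dotted verticals mark 345 kb and 655 kb, where single steps of the deletion series stand out, and 415 kb, a minimum of all 8 libraries.

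The same place sent a line of raised contacts toward the right, the Sox9 side of the original order. The 30 kb window chr11:111510001-111540000 was set against all bins at least 600 kb to its right. Its mean contact over expectation was 1.89 in InvC∆Bor (3460 contacts), 2.08 in InvC (5857), 2.11 in InvIntra (8381) and 2.36 in BorKnockIn (7908). It was 1.15 for ∆BorC1 (2934), 1.24 for ∆BorC1-2 (3930), 1.40 for ∆BorC1-4 (6716) and 1.30 for ∆CTCF (2934). All 4 rearranged libraries were above all 4 deletion libraries. With bins 300 to 590 kb to the right the rearranged libraries had 1.55 to 1.77 and the deletion libraries 0.98 to 1.13. With bins 100 to 290 kb to the right they had 1.11 to 1.20, against 0.90 to 0.93 in the deletion libraries.

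To the left the order was turned. With bins 50 to 110 kb to its left the window had 0.56 in InvC∆Bor, 0.72 in InvC, 0.60 in InvIntra and 0.58 in BorKnockIn, against 0.90 for ∆BorC1, 0.90 for ∆BorC1-2, 0.89 for ∆BorC1-4 and 0.89 for ∆CTCF. Over the same stretches the rearranged maps were poorer in contacts left of the site than the deletion maps, and richer right of it. The left was read at 50 to 110 kb and the right from 100 kb on, so their sizes are not directly comparable. The contrast between the sides kept its direction by sequence in the 3 inverted maps, where the whole desert runs the other way along the chromosome.

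**Figure D3:**
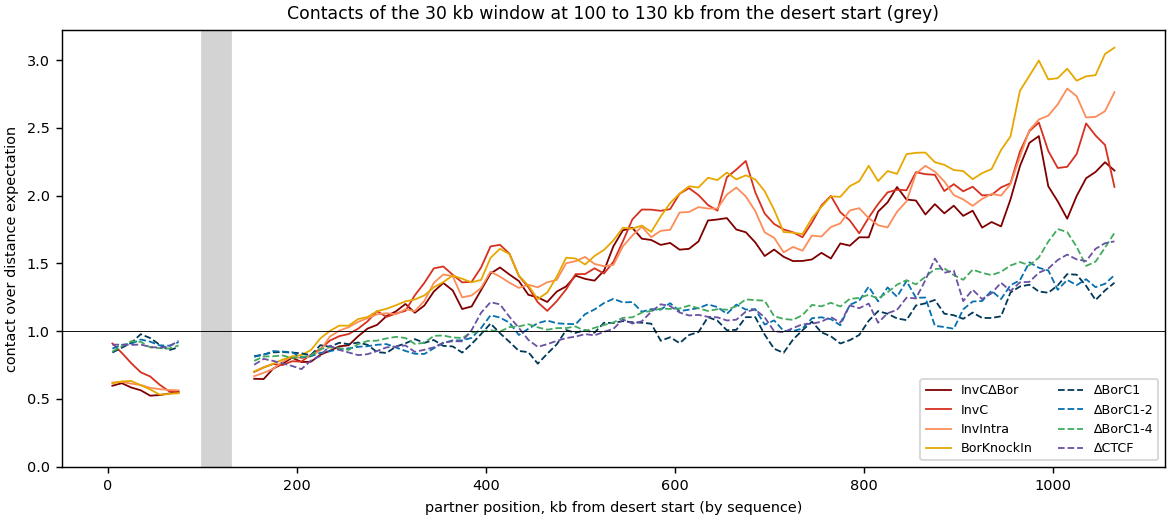
Contact over distance expectation between the 30 kb window 100 to 130 kb from the desert start (grey) and partners along the desert, in kb from its start by sequence. Right of the window the 4 rearranged libraries (solid) climb above 1.5 from about 550 kb on, and left of it InvC∆Bor, InvIntra and BorKnockIn lie below the 4 deletion libraries (dashed). InvC lies below them from 15 to 75 kb and above them at 5 kb.

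An arm score was used to ask whether the line belongs to this window or to its surroundings. It is the log2 of a 30 kb window's mean contact over expectation with all bins at least 100 kb to 1 side, over that of windows 40 to 70 kb away. The right arm score at 111.525 Mb was 0.43 in InvC∆Bor, 0.38 in InvC, 0.36 in InvIntra and 0.49 in BorKnockIn, against -0.06 for ∆BorC1, -0.05 for ∆BorC1-2, -0.05 for ∆BorC1-4 and -0.04 for ∆CTCF. The window stood above its neighbours in all 4 rearranged libraries and in no deletion library. Over 536 flank arms the range between the 8 libraries was 0.09 in the median and at most 0.47, and here it was 0.55.

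Read coverage differed between the groups at many bins: 28 of 107 were higher and 18 lower in all 4 rearranged than in all 4 deletion libraries, and the site was among the higher ones. The bin chr11:111510001-111520000 held 1.16 of the desert's median coverage in InvC∆Bor, 0.99 in InvC, 1.18 in InvIntra and 1.24 in BorKnockIn, against 0.81 for ∆BorC1, 0.84 for ∆BorC1-2, 0.83 for ∆BorC1-4 and 0.80 for ∆CTCF. The ratio of the group medians, 1.43, was the highest of the 107 bins. With this bin left out the insulation difference was -0.54 and the arm score difference 0.43, against 0.46 with it. The bin chr11:111530001-111540000 of the same window was also higher in all 4 rearranged libraries, with a ratio of 1.26, and was kept. Leaving out 1 bin therefore does not remove the coverage difference at the site.

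Single positions inside the desert were then described from local enrichment. This is the mean contact over expectation of 3 by 3 bins over that of a ring 30 to 60 kb away, and a position at least 25% above its ring was counted. The rule fixed for naming peaks used the deletion libraries and gave weak ones, so the 8 highest local maxima of BorKnockIn were added after the data were seen. The eighth had 1.23 and the next 1.22. Of these 8, 6 had their left end at 111.515 or 111.525 Mb, and their right ends lay at 111.825, 111.895, 112.065, 112.175, 112.255 and 112.395 Mb. BorKnockIn's own values chose them and are given as a description. These 6 lie on the line of raised contacts from the site, and their rings extend off that line. Local enrichment therefore cannot tell a peak there from the line itself.

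The strongest joined 111.525 and 112.065 Mb, 540 kb apart. Its local enrichment was 1.42 in InvC∆Bor, 1.42 in InvC and 1.35 in InvIntra, with 1.46 in BorKnockIn, against 1.00 for ∆BorC1, 0.97 for ∆BorC1-2, 0.98 for ∆BorC1-4 and 0.96 for ∆CTCF. The 3 by 3 bins held 422 contacts in InvC∆Bor, 763 in InvC, 1015 in InvIntra and 957 in BorKnockIn, against 325 for ∆BorC1, 447 for ∆BorC1-2, 661 for ∆BorC1-4 and 295 for ∆CTCF. As contact over expectation this was 1.83 in InvC∆Bor, 2.14 in InvC, 2.01 in InvIntra and 2.17 in BorKnockIn, against 1.01, 1.13, 1.16 and 1.08 in ∆BorC1, ∆BorC1-2, ∆BorC1-4 and ∆CTCF. The local enrichment of this pair was thus raised in all 3 inverted maps at its place in the sequence. In the deletion maps it was 0.96 to 1.00. Whether the pair is a peak apart from the line of raised contacts was not tested.

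The pair 111.515 and 112.395 Mb, 880 kb apart, had the highest contact over expectation of the 8 peaks in each rearranged library, at 2.42 in InvC∆Bor, 2.71 in InvC, 2.52 in InvIntra and 3.03 in BorKnockIn. The deletion libraries had 1.28 (∆BorC1), 1.33 (∆BorC1-2), 1.53 (∆BorC1-4) and 1.46 (∆CTCF). Its local enrichment was 1.47 in InvC∆Bor, 1.36 in InvC and 1.23 in InvIntra, against 0.96 to 0.97 in the deletion libraries. The pair 111.525 and 111.825 Mb had 1.39 in InvC∆Bor, 1.43 in InvC and 1.249 in InvIntra (just under the limit), against 1.06 for ∆BorC1, 1.06 for ∆BorC1-2, 0.95 for ∆BorC1-4 and 1.19 for ∆CTCF.

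Of the 6 peaks with an end at the site, 4 stood at least 25% above their ring in InvC∆Bor (background over all desert and flank positions 7.79%), 4 in InvC (6.94%) and 1 in InvIntra (6.15%). Among the deletion libraries 0 of the 6 did so, in ∆BorC1 (7.09%), ∆BorC1-2 (7.08%), ∆BorC1-4 (6.29%) and ∆CTCF (7.61%). A count of 0 of 6 is near these background shares and says little by itself. The 6 positions share the site as their left end and are not separate members. They also lie on its line of raised contacts, so these counts cannot separate peaks from that line. BorKnockIn, on which the 6 positions were chosen, had all 6 above that limit (6.9%). From raw counts at the same positions, 18 of 18 values passed in the inverted and 4 of 24 in the deletion libraries, where 9 of 18 and 0 of 24 did so from balanced values. Raw counts are not corrected for bin coverage, which was higher in the rearranged libraries at the bin chr11:111510001-111520000. The peaks were not read without that bin. The desert itself was poorer in such positions than the flanks: 2.87% of its 3240 positions in InvC∆Bor, 2.35% in InvC, 0.988% in InvIntra and 3.02% in BorKnockIn, against 0.247% for ∆BorC1, 0.123% for ∆BorC1-2, 0.0617% for ∆BorC1-4 and 0.679% for ∆CTCF. The other 2 peaks, 111.825 with 112.275 Mb and 112.095 with 112.375 Mb, did not separate the groups. Their local enrichment ran from 1.07 to 1.27 in the inverted libraries and from 1.05 to 1.26 in the deletion libraries.

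The same contrast was then counted over 50 kb block pairs. A pair was counted where the ratio of contact over expectation was at least 1.5-fold either way, with at least 100 raw contacts over both libraries. BorKnockIn over ∆BorC1 had 21 of 190 desert pairs, 11.1% (background over desert and flanks 2.36%), of which 18 were up (1.91%) and 3 down (0.454%). InvIntra over ∆BorC1 had 15, all up (1.63%). InvC over ∆BorC1 had 16, all up (1.63%). InvC∆Bor over ∆BorC1 had 6 (0.726%), of which 4 were up (0.454%) and 2 down (0.272%). The flanks alone gave 2 to 5 of 912 pairs in these comparisons, which all share ∆BorC1.

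Most of the pairs counted up involved the block that holds the site, 111510001 to 111560000. They were 12 of 18 in BorKnockIn, 11 of 15 in InvIntra, 11 of 16 in InvC and 4 of 4 in InvC∆Bor, where this block had 17 testable partners on its right. From raw counts they were 14 of 22 in BorKnockIn, 13 of 17 in InvIntra, 13 of 21 in InvC and 13 of 13 in InvC∆Bor, which then also had 4 pairs down, so the lower count of InvC∆Bor rests on the balanced values. In BorKnockIn the highest ratio was between this block and the block that starts at 112.41 Mb, 2.55 against 1.28 in ∆BorC1 (1499 against 572 contacts). InvIntra had 2.46 at the same pair (1741 contacts). The lowest in BorKnockIn was between the blocks that start at 111.41 and 111.51 Mb, 0.572 against 0.918 in ∆BorC1, a ratio of 0.623. InvC∆Bor had 0.580 there. All 3 pairs counted down in BorKnockIn and both in InvC∆Bor joined the left 100 kb of the desert to places at or beyond the site.

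These counts depended on the expectation. With each library's mean taken over the desert alone, the split was 0 up and 9 down in BorKnockIn, 0 up and 1 down in InvIntra, 2 up and 0 down in InvC and 1 up and 1 down in InvC∆Bor, over ∆BorC1. The median log2 ratio of all desert pairs in BorKnockIn was then 0.01, where it was 0.22 with the whole map. It was -0.01 and 0.19 in InvIntra, -0.02 and 0.09 in InvC and -0.02 and 0.03 in InvC∆Bor. With the whole map as the yardstick, the ratios thus include a general excess of contacts over the desert in BorKnockIn and InvIntra.

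Other features were shared by all 8 libraries. The median insulation profile of the deletion libraries had 3 minima, at 111.825, 112.035 and 112.275 Mb, and the rearranged libraries were not used to choose them. At 111.825 Mb all 8 libraries had a minimum of their own in that very bin, in either orientation. The score was -0.09 in InvC∆Bor, -0.14 in InvC, -0.11 in InvIntra and -0.16 in BorKnockIn, against -0.17 for ∆BorC1, -0.16 for ∆BorC1-2, -0.19 for ∆BorC1-4 and -0.25 for ∆CTCF. Near 112.035 Mb all 8 had a minimum within 20 kb, with scores of -0.24 to -0.14 in the rearranged and -0.25 to -0.11 in the deletion libraries. Near 112.275 Mb a minimum lay within 30 kb in 6 libraries, and none was near it in InvIntra or ∆BorC1. In the flanks, 10 of 11 such minima had an own minimum within 20 kb in all 8 libraries, and inside the desert 2 of 3.

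Lines of raised contacts were also shared, and were weak. An arm score above 0.05 in all 8 libraries was found for 9 of 133 arms inside the desert, 6.77% (background over desert and flanks 20%), and for 125 of 536 in the flanks. The 9 fell at 4 places. At 111.825 Mb the right arm score was 0.07 to 0.14 in the rearranged and 0.10 to 0.20 in the deletion libraries, ∆CTCF being highest. The left arm score there was 0.11 to 0.21 in the deletion libraries, 0.13 in BorKnockIn and 0.12 in InvC. It fell under the limit in InvC∆Bor (0.046) and InvIntra (0.028), so this place was raised on both sides in most libraries. At 112.085 Mb the right arm score was 0.17 in InvC∆Bor, 0.20 in InvC, 0.14 in InvIntra and 0.20 in BorKnockIn, against 0.21 for ∆BorC1, 0.25 for ∆BorC1-2, 0.06 for ∆BorC1-4 and 0.08 for ∆CTCF. Near 112.265 and 112.385 Mb the arm ran to the left. At 112.395 Mb the left arm score was 0.08 to 0.14 in the rearranged and 0.07 to 0.15 in the deletion libraries. The rule asked for a raised score on the same side by sequence in all 8 libraries. Agreement of side between the inverted and the uninverted maps was thus fixed by the choice.

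Contact peaks fixed on the median of the deletion libraries were weak as well, and joined some of the same places. The 8 highest had 1.15 to 1.24 on that median, the eighth 1.15 and the next 1.14, and the rearranged libraries took no share in the choice. Of the 8, 4 had an end at 111.825 or 111.835 Mb, with partners at 112.025, 112.095, 112.265 and 112.385 Mb. The others joined 111.565 with 111.815 Mb, 111.565 with 112.375 Mb, 112.025 with 112.385 Mb and 112.085 with 112.385 Mb. In the rearranged libraries 7 of the 8 were above their ring in InvC∆Bor (background over all desert and flank positions 43.4%), 8 in InvC (42.1%), 6 in InvIntra (42.6%) and 8 in BorKnockIn (41.9%). The 25% limit was passed by 1 of the 8 in InvC and by 0 in InvC∆Bor, InvIntra and BorKnockIn, where the backgrounds given above were 6.15% to 7.79% of positions. The deletion libraries, on which they were chosen, had 2 (∆BorC1), 1 (∆BorC1-2), 1 (∆BorC1-4) and 5 (∆CTCF) past it.

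That 1 peak joined 112.085 and 112.385 Mb, 300 kb apart, where a right arm and a left arm shared by all libraries meet. Its local enrichment was 1.22 in InvC∆Bor, 1.34 in InvC, 1.18 in InvIntra and 1.22 in BorKnockIn, against 1.19 for ∆BorC1, 1.31 for ∆BorC1-2, 1.12 for ∆BorC1-4 and 1.13 for ∆CTCF. It was above its ring in all 8 libraries, in both orientations (background 42.5% for ∆BorC1, 42% for ∆BorC1-2, 42.3% for ∆BorC1-4 and 41.4% for ∆CTCF), and lowest in ∆BorC1-4 and ∆CTCF. The bins held 362 contacts in InvC∆Bor, the fewest, and 1187 in ∆BorC1-4, the most. The highest peak of the choice, 111.825 with 112.265 Mb, had 1.03 in InvC∆Bor, 1.16 in InvC, 0.996 in InvIntra and 1.18 in BorKnockIn, against 1.253 for ∆BorC1, 1.13 for ∆BorC1-2, 1.16 for ∆BorC1-4 and 1.26 for ∆CTCF. Here the groups overlapped, and InvC∆Bor and InvIntra stood close to their ring.

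Within the deletion series, the step to each next library was read for places that moved. ∆BorC1-2 and ∆BorC1 differed most at 111.755 Mb, where the insulation score was 0.14 in ∆BorC1-2 and -0.12 in ∆BorC1, a difference of 0.26. The largest difference of these libraries over the flanks was 0.13. ∆BorC1-4 and ∆CTCF had 0.10 and 0.12 there, close to ∆BorC1-2, and the rearranged libraries -0.01 to 0.03, between them and ∆BorC1. The right arm score at the neighbouring 111.765 Mb ran the same way. It was 0.09 for ∆BorC1, -0.14 for ∆BorC1-2, -0.10 for ∆BorC1-4 and -0.19 for ∆CTCF, with 0.01 to 0.06 in the rearranged libraries. Its range lay within the flank maximum of 0.47.

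∆BorC1-4 and ∆BorC1-2 differed most at 112.065 Mb, with -0.02 in ∆BorC1-4 and -0.23 in ∆BorC1-2, a difference of 0.21, where the flank maximum was 0.13. ∆CTCF had -0.06 there and ∆BorC1 -0.18, and the rearranged libraries -0.19 to -0.13. The right arm at 112.085 Mb was likewise weaker in ∆BorC1-4 and ∆CTCF than in ∆BorC1 and ∆BorC1-2, by the values above. The range of this arm over the 8 libraries, 0.20, also lay within the flank maximum of 0.47. At 111.755 Mb ∆BorC1 thus stood apart from the other 3 deletion libraries, and at 112.065 Mb ∆BorC1-4 and ∆CTCF stood apart from ∆BorC1 and ∆BorC1-2. The labels give no position for the C sites, and whether either place is one of them was not tested.

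The last step was small. At the 87 positions that the 100 kb window can read, ∆CTCF and ∆BorC1-4 differed by at most 0.11, at 112.225 Mb. This was less than their largest flank difference of 0.23. Their block patterns correlated at 0.958, the highest of the deletion libraries. No step of the series reached 1.5-fold in a block pair: 0 of 190 for ∆BorC1-2 over ∆BorC1 (background 0.0907%), 0 for ∆BorC1-4 over ∆BorC1-2 (0%) and 0 for ∆CTCF over ∆BorC1-4 (0%). The highest ratio of ∆BorC1-4 over ∆BorC1-2 was 1.37, between the blocks that start at 111.86 and 112.16 Mb, with 1.04 in ∆BorC1-4 and 0.762 in ∆BorC1-2. These blocks lie on either side of 112.065 Mb. The lowest ratio of ∆BorC1-2 over ∆BorC1 was 0.783, between the blocks that start at 111760001 and 112210001, with 0.838 in ∆BorC1-2 and 1.07 in ∆BorC1. The second lowest, 0.803, shared the block at 111760001. Between ∆CTCF and ∆BorC1-4 the lowest ratio was 0.827, at the blocks that start at 111.86 and 112.16 Mb, with 0.862 in ∆CTCF and 1.04 in ∆BorC1-4.

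**Figure D4:**
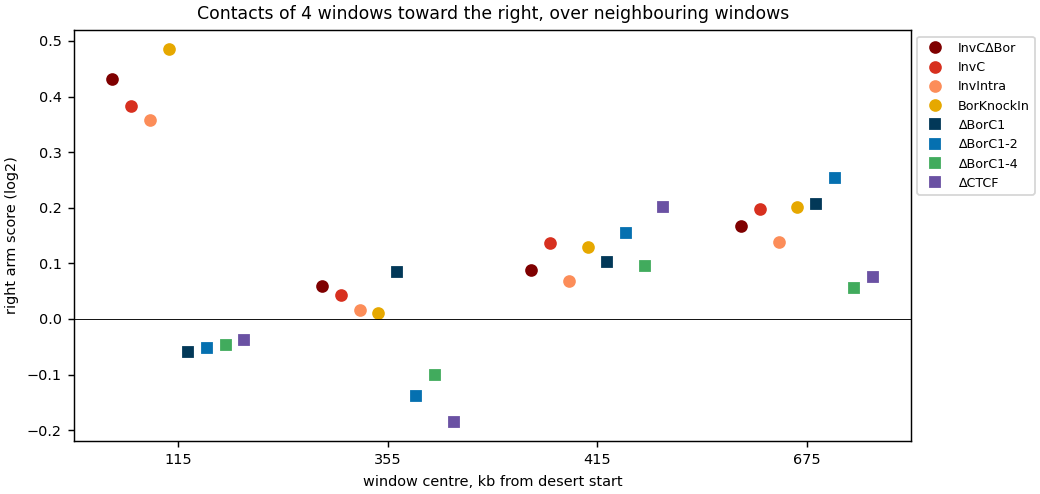
Right arm score (log2) of 4 windows, 115, 355, 415 and 675 kb from the desert start, 1 point per library, with circles for the rearranged and squares for the deletion libraries. The groups are apart at 115 kb. At 355 kb ∆BorC1 lies above the other 3 deletion libraries, at 415 kb all 8 are above 0, and at 675 kb ∆BorC1-4 and ∆CTCF are lowest.

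InvC∆Bor and InvC carry the desert in the same inverted order and differ in the label by the loss of the boundary. At the 87 positions that the 100 kb window can read, their insulation profiles differed by at most 0.12 in size. This was at 111.515 Mb, with -0.62 in InvC∆Bor and -0.51 in InvC, less than the 0.16 reached in the flanks. That window does not read the outer 100 kb of the desert. With the 50 kb window the score at 111.475 Mb was -0.13 in InvC∆Bor and 0.04 in InvC. In block pairs, 1 of 190 passed 1.5-fold, down (background 0.181%). It joined the left end block, 111.41 to 111.46 Mb, to the block that starts at 112.21 Mb, with 1.12 in InvC∆Bor and 1.68 in InvC (398 and 987 contacts).

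This left end was the place where the pair differed along its whole length. With the 11 blocks at least 500 kb away, the left end block had a mean contact over expectation of 1.247 in InvC∆Bor and 1.68 in InvC. InvIntra had 1.45 and BorKnockIn 1.36, and the deletion libraries 1.24 (∆BorC1), 1.33 (∆BorC1-2), 1.41 (∆BorC1-4) and 1.33 (∆CTCF). InvC was the highest of the 8, and InvC∆Bor was close to ∆BorC1, the lowest. The ratio of InvC∆Bor over InvC had a median of 0.759 over the 11 pairs (0.664 to 0.826). For the next block it was 0.836 over 10 pairs, and for the 45 other pairs as far apart 0.945. The InvC window at 111.525 Mb, which had the highest left-hand contacts of the rearranged libraries, belongs to the same end.

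The right end block, 112.41 to 112.46 Mb, did not separate this pair in the same way. With the 11 blocks at least 500 kb away it had a mean of 1.46 in InvC∆Bor and 1.60 in InvC. InvIntra had 1.82 and BorKnockIn 1.89, the 2 highest, and the deletion libraries had 1.34 (∆BorC1), 1.31 (∆BorC1-2), 1.53 (∆BorC1-4) and 1.42 (∆CTCF). InvC∆Bor lay among the deletion libraries, and InvC, InvIntra and BorKnockIn lay above them.

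**Figure D5:**
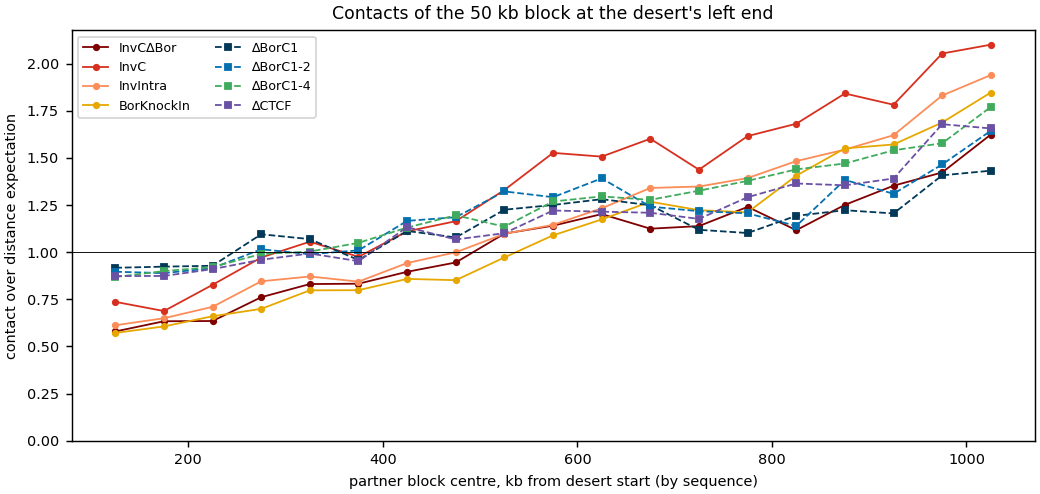
Contact over distance expectation between the 50 kb block at the left end of the desert and blocks along it, in kb from the desert start by sequence, for InvC∆Bor, InvC, InvIntra and BorKnockIn (circles) and the 4 deletion libraries (squares, dashed). InvC is highest at the far end, and InvC∆Bor, InvIntra and BorKnockIn are the 3 lowest up to 575 kb.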

How the data were processed

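Each of the 8 libraries had a raw and a balanced map of chromosome 11 in 587 bins of 10 kb. Per the submitters' processing notes, Bowtie2 2.2.6, Juicer and mm9 were used; no source used here states how reads were filtered. The authors deposited raw counts of read pairs per bin pair, and a signal balanced by the KR method, per the file names.

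Libraries were matched by sequence to the nearest bin, which leaves an offset of 1 kb in InvC, InvC∆Bor and BorKnockIn and 2.5 kb in InvIntra. Expected contact was the mean over a library's own map at each distance. Flanks ended at 110.62 Mb and began at 112.97 Mb. Minima needed a depth of 0.1 (log2) on both sides. Named peaks and blocks needed at least 20 and 100 contacts, peaks at least 150 kb between their ends. Calculations ran in Python 3.11.15 (scipy 1.17.1, pandas 2.3.3, numpy 2.4.6; plots with matplotlib 3.10.9), and the measures were tested on simulated maps. Alternatives were raw counts, counts thinned to 3056502 contacts, another expectation, window, block size, fold, minimum and reading frame. The members and lists were chosen with earlier results of these data known; the 111.525 Mb site, the arms, the steps, the left end and the BorKnockIn peaks were chosen after the data were seen. With 1 library per genotype there was no test.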

Additional observations from a re-analysis of the deposited data

How the results depend on the processing

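Of 143 alternative values, 83 stayed within a set tolerance, 58 moved and 2 reversed. The tolerance was 1.5 times for counts and counting error for most other values. For likenesses it was the standard deviation over the libraries compared, and for pairs up minus down a fixed share of the main value. No paired analysis was possible because each genotype had 1 library. KR values gave a median desert share of 7.38% (raw counts 9.88%). Raw counts gave a highest over lowest library at long distance of 1.43 (KR 1.38). The median likeness of the rearranged libraries to ∆BorC1, 0.718, was 0.561 from raw counts, 0.554 from thinned counts and 0.287 with the desert's own expectation. That of the inverted libraries to BorKnockIn, 0.960, was 0.893 with the desert's own expectation.

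Block pairs past 1.5-fold with the desert's own expectation were 9 in BorKnockIn over ∆BorC1, 1 in InvIntra, 2 in InvC∆Bor, 2 in InvC and 0 in InvC∆Bor over InvC. Pairs up minus pairs down then reversed to -9 in BorKnockIn and -1 in InvIntra (main 15 in both), and were 2 in InvC (main 16), 0 in InvC∆Bor (main 2) and 0 in InvC∆Bor over InvC (main -1). From raw counts they were 9 in InvC∆Bor (thinned 9) and -3 in InvC∆Bor over InvC. Counted from a 25% higher ratio on, they were 1 for ∆BorC1-2 over ∆BorC1, 18 for ∆BorC1-4 over ∆BorC1-2, 69 for BorKnockIn, 55 for InvIntra, 30 for InvC∆Bor and 43 for InvC over ∆BorC1, and 18 for InvC∆Bor over InvC. Raw and thinned counts both gave 17 for InvC∆Bor over ∆BorC1 (main 6), and raw counts 3 for InvC∆Bor over InvC.

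The 8 peaks chosen on the deletion libraries passed the 25% limit in 1 of 32 values of the rearranged libraries. At the same positions 2 passed from raw counts, 2 from thinned counts and 14 with a 1-bin centre. The 6 peaks at the left site passed in 9 of 18 values of the inverted libraries (18 from raw and 18 from thinned counts) and in 0 of 24 of the deletion libraries (4 raw, 4 thinned, 1 with a 1-bin centre). Where each setting chose its own 8 peaks, those of the deletion libraries passed in 31 of 32 values from raw counts, 29 from thinned counts and 14 with a 1-bin centre. Those of BorKnockIn then passed in 24 raw and 24 thinned values of the inverted libraries (main 10 of 24) and in 29 raw, 28 thinned and 2 1-bin values of the deletion libraries (main 1 of 32). The peaks chosen from raw counts shared 0 of 8 positions with those of the deletion libraries and 1 of 8 with those of BorKnockIn; raw counts are not corrected for bin coverage. The minima numbered 5 with a 50 kb and 1 with a 200 kb window (main 3).

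The insulation difference at 111.525 Mb, -0.54, was -0.41 from raw counts, -0.40 from thinned counts, -0.60 with a 50 kb window and -0.46 with the rearranged libraries read 1 bin to the left. A 200 kb window would leave the desert there. The step at 111.755 Mb, 0.26, was 0.22 with a 200 kb window. That at 112.065 Mb, 0.21, was 0.17 from raw and 0.18 from thinned counts. Apart from the construction of raw counts and of the lower fold, the cause of these shifts was not tested.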
